A study of Arabidopsis thaliana with 18 samples.

Results

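In Arabidopsis thaliana roots, 156 probe sets were higher than in the wild type in each of 5 lines with a changed NRT1.1, the T101D line included. They were chosen from 22746 probe sets of an Affymetrix array by a rule on genotype means of log2(intensity + 16). In chl1-5, chl1-9, chl1-12 and T101A, the difference from the wild type (col) had to be at least 0.5 in each line, and in T101D it had to be at least 0.5 times the mean of those 4 differences. The first condition was met by 267 probe sets and both conditions by 172. Of these, 16 were left out by gene name, because the rule sets aside some genes and families, such as cytochromes P450, expansins and SWEET sugar transporters. The 156 probe sets stood for 76 genes named by 1 probe set each, 1 probe set listed for several genes and 79 with no listed gene. Families were matched by listed symbol, so probe sets with no listed gene, or listed by locus alone, may still belong to the families set aside. The rule used every difference from col and the position of T101D, so those values are given below as a description with no test.

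The 6 genotypes had 3 arrays each, 18 in all, made from root total RNA of plants kept in vitro for 8 days on 10 mM NH4NO3. This nitrogen supply was the same for all groups, and no allele is labelled as shared by all of them. The wild type is labelled col. chl1-5 is known as a deletion of NRT1.1 and chl1-9 as a point mutant, whereas the lesion of chl1-12 is not described in the labels. In T101A the threonine T101 is replaced by alanine, and in T101D by aspartate. The labels do not give the promoter or background that carries these 2 forms, whether they come from 1 or several transformants, or whether arrays of a genotype came from separate cultures. An intensity here is the deposited probe set value, scaled on each array to a common trimmed mean of 500, so a level belongs to 1 probe set and is not compared between genes. In whole roots, more cells of a type and more RNA per cell cannot be told apart.

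NRT1.1, also called CHL1 and NPF6.3, moves nitrate across the root cell membrane and also acts as a nitrate sensor. Phosphorylation of its threonine T101 switches the protein between low and high affinity for nitrate, and it changes the signal the sensor passes on. The alanine form cannot be phosphorylated there, and the aspartate form mimics phosphorylation. NRT1.1 is also known to move auxin, and its loss is known to change nitrate-responsive transcription in roots.

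By textbook family, 43 of the 76 named genes could be given a role. These were 9 genes for cell wall or secreted proteins, 11 for transferases and precursor enzymes of specialised metabolism, 5 for 2-oxoglutarate dioxygenases, 4 for transporters, 10 for regulators and signalling proteins, and 4 for redox or stress proteins. No role is given here for the other 33 genes. The groups were drawn up after the values had been seen.

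Averaged over the 156 probe sets, each array gave 1 log2 level. It was 8.11, 7.99 and 7.76 on the col arrays. The chl1-5 arrays gave 8.91, 8.71 and 8.84, those of chl1-9 gave 8.85, 8.77 and 8.85, those of chl1-12 gave 8.96, 8.76 and 8.69, and those of T101A gave 8.96, 8.78 and 8.94. For T101D it was 8.69, 8.49 and 8.64. All 15 line arrays therefore lay above the highest col array. Every T101D array lay below every array of the other lines, although T101D replicate 1 (8.6851) and chl1-12 replicate 3 (8.6861) were almost equal. The mean of all 22746 probe sets stayed between 7.57 and 7.63 on every array. The col arrays were also spread most, at 7.95 ± 0.18 (SD, n = 3), with replicate 3 the lowest.

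**Figure D1:**
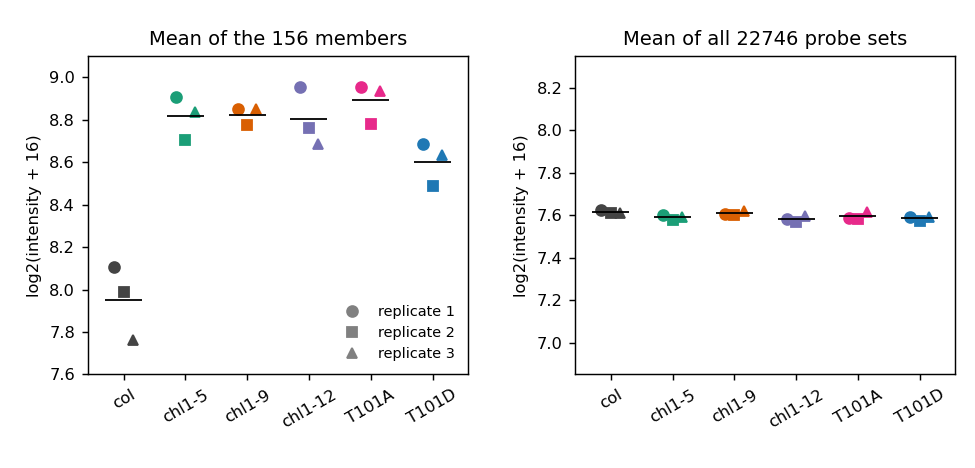
Mean log2(intensity + 16) of the 156 probe sets (left) and of all 22746 probe sets (right) on each of the 18 arrays, with symbols for replicate number and a line at each genotype mean. The left panel shows col between 7.76 and 8.11 and the T101D arrays between 8.49 and 8.69, while the right panel stays between 7.57 and 7.63.

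**Figure D2:**
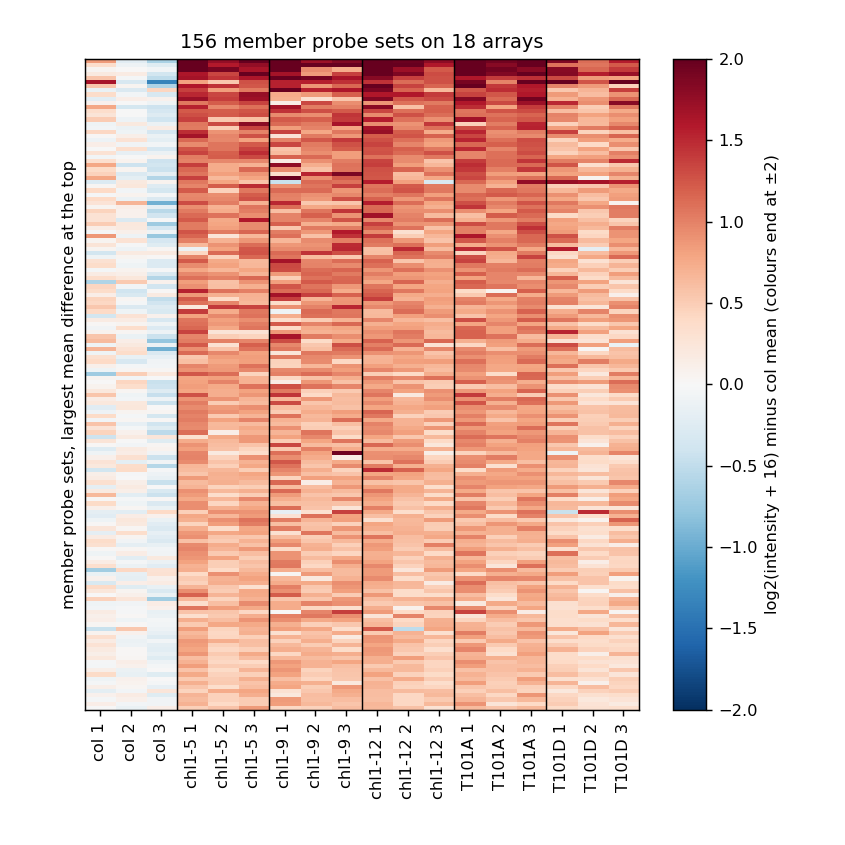
Each row is 1 of the 156 probe sets and each column 1 of the 18 arrays, coloured by log2(intensity + 16) minus the col mean of that row, with colours ending at a difference of 2 either way. Rows are ordered by the mean difference of the 5 lines, and the T101D columns are paler than those of the other lines in most rows.

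The median difference from col over the 156 probe sets on the log2 scale was 0.80 for chl1-5, 0.81 for chl1-9, 0.79 for chl1-12 and 0.88 for T101A. For T101D it was 0.63, with a range from 0.31 to 1.92. Over all probe sets the same medians lay between -0.03 and 0.00. The differences were thus mostly under 1, and 28 of the 156 reached a mean of 1 over the 5 lines. In 102 of the 156, each of the 15 line arrays lay above each of the 3 col arrays, a pattern found in 1.47% of all probe sets. Since the rule selects for it, nothing is read from that count or from the counts within role groups below. Levels in col ran from 3.40 to 10067, with a median of 227, and 12 of the 156 had a col mean under 16, so dim that their differences rest mostly on background.

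T101D was the lowest of the 5 lines in 116 of the 156 and the highest in 5. The rule let T101D pass under the floor of 0.5 set for each other line, so its low place is partly built into the choice. Its difference divided by the mean of the other 4 differences, called its share below, had a median of 0.689 and ran from the limit of the rule, at 0.504, to 1.98. In 106 of the 156 T101D was at least 0.5 above col. In 15 it was at or above the mean of the other lines.

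**Figure D3:**
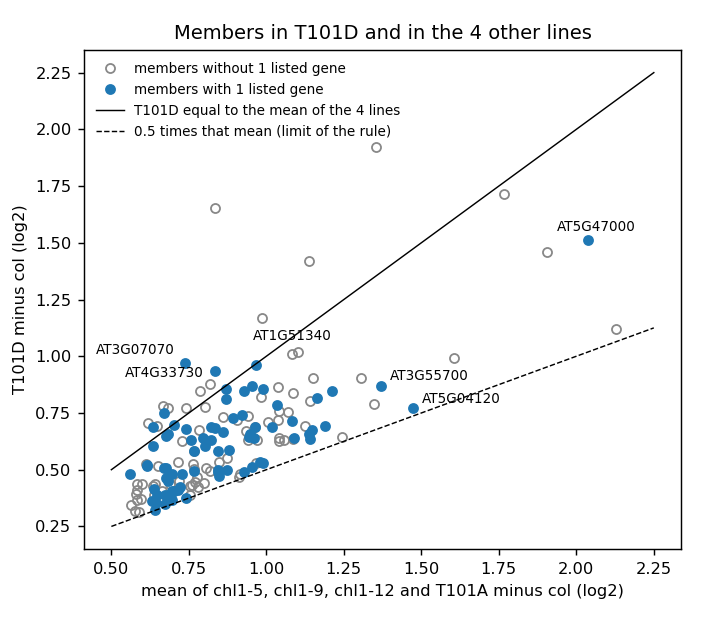
Difference from col in T101D (vertical axis, log2) against the mean difference of chl1-5, chl1-9, chl1-12 and T101A (horizontal axis, log2) for the 156 probe sets, filled where 1 gene is listed. The solid line marks equal differences and the dashed line 0.5 times that mean, the limit of the rule. Of the points, 15 lie on or above the solid line.

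Of the genes for cell wall and secreted proteins, the class III peroxidase gene AT5G47000 differed most of all named genes. Such peroxidases are secreted enzymes that use hydrogen peroxide on cell wall phenolics. Its intensity was 209, 90.6 and 64.9 in col, and 536, 404 and 554 in chl1-5. It was 635, 392 and 436 in chl1-9, 567, 467 and 415 in chl1-12, 553, 458 and 603 in T101A, and 434, 254 and 354 in T101D. No line array overlapped with col, although col replicate 1 stood well above the other 2 col arrays. Against col the differences were 2.03, 1.98, 1.99 and 2.14 in chl1-5, chl1-9, chl1-12 and T101A, and 1.51 in T101D.

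AT1G66180, for an aspartyl protease, was one of the steadiest genes of the set, with 1235, 1327 and 1224 in col and with 2458, 2427 and 2933 in chl1-5. T101A gave 2805, 2970 and 2852, and T101D gave 2387, 1948 and 2248. The T101D arrays lay above all col arrays and below all T101A arrays, and the share was 0.760. The 3 genes for proline-rich proteins, AT4G19200, AT2G28440 and AT5G26080, and the hydroxyproline-rich protein gene AT1G61080 had mean differences between 0.64 and 0.88. Of these 4, AT4G19200 and AT1G61080 had no overlap with col. AT1G61080 was dim, and its lowest T101D array, at 25.3, was only just above its highest col array, at 24.5.

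A pair of genes encode secreted CAP proteins, relatives of the defence protein PR-1. AT4G25790 had 261, 309 and 194 in col and 566, 395 and 446 in T101D, with a share of 0.916. AT4G33730 had 341, 341 and 240 in col, 655, 551 and 590 in chl1-5, 392, 440 and 503 in chl1-9, 615, 492 and 469 in chl1-12, 762, 566 and 721 in T101A, and 655, 557 and 575 in T101D. For AT4G33730, T101D overlapped with chl1-5, chl1-12 and T101A, and all of its arrays lay above the 3 arrays of chl1-9. Its neighbour AT4G33720, also a CAP gene, was not in the set, since its difference was 3.04 in chl1-5, 2.20 in chl1-9, 2.38 in chl1-12 and 2.54 in T101A but 0.57 in T101D.

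In this group the median share of T101D was 0.805, and the line arrays were all above col in 6 of 9 genes. AT4G22610, for a lipid-transfer-like protein, was 1 of the 3 genes with overlap. It had 1225, 620 and 388 in col and 1637, 905 and 1260 in T101D. Replicate 1 was the highest array in col, chl1-5, chl1-12, T101A and T101D for this gene, and col replicate 1 exceeded 1 or 2 arrays of each line except T101A.

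Among the 11 genes of transferases and precursor enzymes were 4 for BAHD acyltransferases, which attach acyl groups to alcohols and amines of specialised metabolites. AT5G47980 and AT5G47950 lie 3 loci apart, in the region of the known gene cluster for thalianol, a triterpene of the Arabidopsis root. AT5G47980 had 838, 543 and 438 in col, and 1530, 853 and 896 in chl1-5. It had 1395, 1360 and 1567 in chl1-9, 1760, 1263 and 1110 in chl1-12, 1903, 1331 and 1412 in T101A, and 1156, 939 and 1045 in T101D. Each line array was above each col array, but the lowest, in chl1-5, exceeded the highest col array only slightly.

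AT5G47950 had 483, 657 and 606 in col, and 925, 908 and 966 in T101D. Its T101D arrays were close together and its share was 0.916, against 0.702 for AT5G47980. AT5G47970, the only other named gene between them, differed from col by 0.06 to 0.33. The closest named genes on the outer sides, AT5G47940 and AT5G48020, differed by -0.02 to 0.20 and by -0.11 to 0.19. By description, the 2 acyltransferase genes stood apart from the other named genes of that stretch, and the difference was not tested. Probe sets with no listed gene could not be placed, so other genes of the stretch, including others of that cluster, may have moved alike.

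The third acyltransferase gene was BAT1, whose product is known to acylate brassinosteroids and so lower their activity. It had 1136, 1225 and 1148 in col, and 2008, 1869 and 2026 in chl1-5. It had 2912, 2547 and 2634 in chl1-9, 2178, 2523 and 2225 in chl1-12, 2197, 2432 and 2543 in T101A, and 1615, 1841 and 1654 in T101D. BAT1 was lowest in T101D and highest in chl1-9, and neither of these lines overlapped with chl1-5. The last one, AT2G40230, had 322, 262 and 275 in col and differences between 0.54 and 0.73 in the lines other than T101D, where the difference was 0.39.

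The SABATH family methylates small carboxylic acids, such as salicylic and jasmonic acid, and 3 of its genes were in the set. AT5G37990 was the brightest named gene, with 4967, 4315 and 3421 in col, 8544, 6369 and 7720 in chl1-9, and 5756, 5217 and 5326 in T101D. No line array overlapped with col, but its share of 0.505 put it close to the limit of the rule. AT5G38020 had 2161, 2013 and 1655 in col and 2865, 2175 and 2819 in T101D. The lowest T101D array of AT5G38020 was only just above the highest col array.

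AT5G38100 had 6.71, 4.54 and 6.65 in col, and in T101D it had 49.4, 3.30 and 18.9. Its values were near background and overlapped with col. The last methyltransferase gene, AT1G24735, belongs to the O-methyltransferases. It had 207, 176 and 181 in col, 371, 329 and 341 in chl1-9, and 241, 250 and 240 in T101D, with no overlap and a share of 0.520.

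AT5G37980, for a zinc-binding dehydrogenase related to alkenal reductases, adjoins AT5G37990. In the stretch from AT5G37960 to AT5G38110, 4 of the 12 named genes were in the set. The other 8 did not all move alike, and AT5G38035 had differences between -0.61 and -0.31. AT5G38030, a MATE-family gene, had differences of 0.33, 0.47, 0.45 and 0.60 in chl1-5, chl1-9, chl1-12 and T101A and of 0.32 in T101D, so 3 of the 4 lines were under the limit. Genes of such tandem families share sequence, so a probe set may also read a neighbouring copy.

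**Figure D4:**
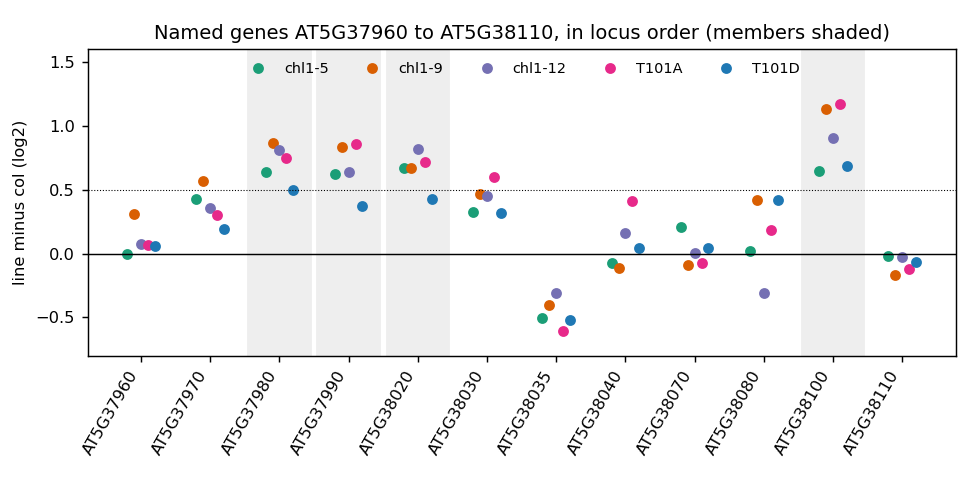
Difference from col (log2, vertical axis) in each of the 5 lines for the 12 named genes from AT5G37960 to AT5G38110, in locus order, with the 4 genes of the set shaded and a dotted line at 0.5. The unshaded genes lie between -0.61 and 0.60.

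The 2 glycosyltransferase genes, whose products attach sugars to small molecules, behaved differently. The rule sets aside glycosyltransferase genes with UGT symbols, and these 2 stayed in the set because they are listed by locus alone. AT3G55700 was near background in col, at 4.54, 2.39 and 14.3, against 78.4, 49.8 and 53.4 in chl1-9 and 16.9, 20.0 and 42.9 in T101D. No line array of AT3G55700 overlapped with col, and its differences were 1.08, 1.75, 1.23 and 1.42 and, in T101D, 0.87. AT2G31790 had 427, 682 and 590 in col, 986, 1097 and 1204 in chl1-5, and 1014, 886 and 1078 in T101D. It was as high in T101D as in T101A, with differences of 0.81 and 0.76.

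AT3G32040 encodes a prenyl diphosphate synthase-like protein, of the family that makes precursors of terpenoids. It had 207, 85.4 and 81.2 in col, and 244, 166 and 255 in T101D. Col replicate 1 overlapped with arrays of chl1-12 and T101D. Over the 11 genes the median share of T101D was 0.635, and 9 genes had no overlap with col.

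**Figure D5:**
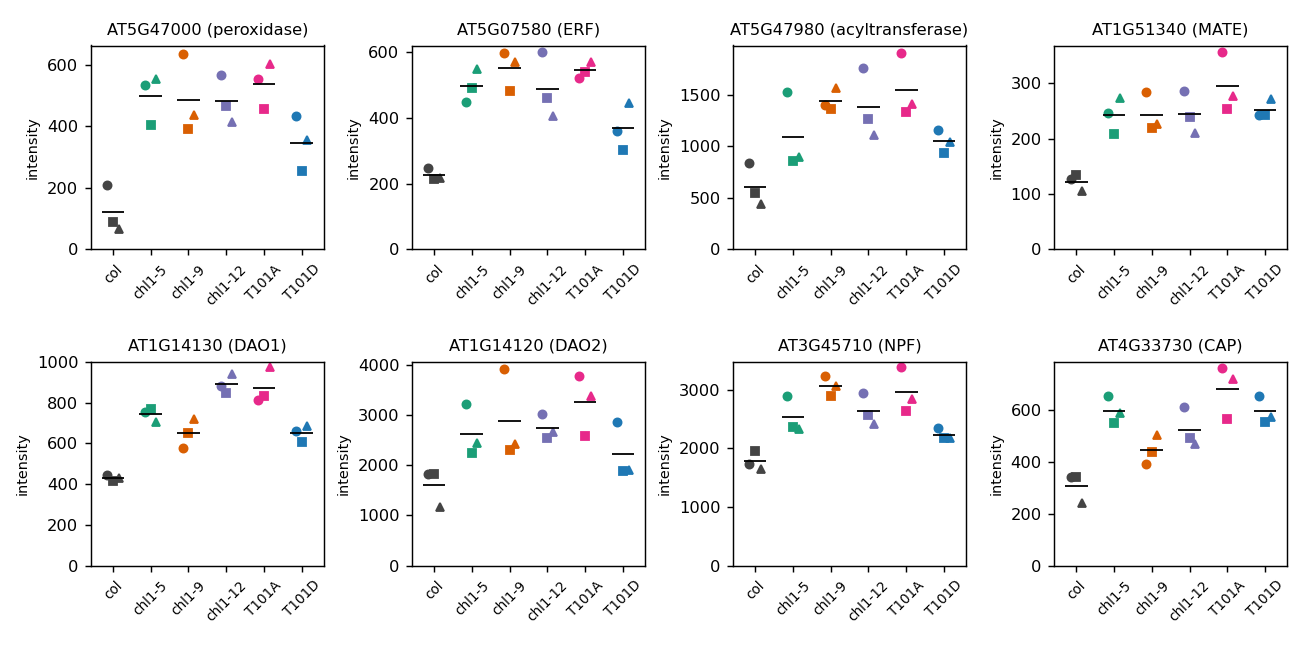
Intensity (linear, from 0) of 8 named genes on each array, by genotype, with circles, squares and triangles for replicates 1, 2 and 3 and a line at each genotype mean. AT1G51340 and AT4G33730 are as high in T101D as in other lines, whereas AT5G07580 and AT3G45710 are lower there.

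The 2-oxoglutarate dioxygenases use iron and oxygen to oxidise small molecules. AT1G14130 and AT1G14120 are the adjoining genes known as DAO1 and DAO2, and DAO1 oxidises the auxin indole-3-acetic acid to an inactive product. AT1G14130 had 446, 413 and 428 in col, and 753, 769 and 708 in chl1-5. It had 578, 652 and 719 in chl1-9, 884, 849 and 941 in chl1-12, 814, 835 and 974 in T101A, and 660, 606 and 687 in T101D. The groups fell into 3 ranges that did not overlap, with col lowest, chl1-5, chl1-9 and T101D in the middle, and chl1-12 and T101A at the top.

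AT1G14120 had 1818, 1815 and 1161 in col, and 2856, 1892 and 1902 in T101D. It was above col on every line array, but 2 of its T101D arrays were only just above the highest col arrays. The 2 genes are near copies, so their probe sets may share signal. The remaining 3 genes of the family were AT5G12270, AT2G30840 and AOP1, the last from the AOP locus known for changing the side chains of glucosinolates. Their mean differences were 0.82, 0.65 and 0.63, and AT2G30840 alone of the 3 did not overlap with col.

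The 4 transporter genes were all without overlap. AT1G51340 encodes a MATE protein known as a citrate exporter, and had 127, 134 and 106 in col. It had 246, 208 and 273 in chl1-5, 284, 219 and 226 in chl1-9, 286, 239 and 211 in chl1-12, 356, 253 and 277 in T101A, and 243, 243 and 271 in T101D. All 5 lines overlapped with each other, and the T101D difference of 0.96 compared with 0.90, 0.90, 0.91 and 1.16 in the other lines.

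The other MATE gene, AT1G71870, had 514, 451 and 369 in col, and 571, 576 and 553 in T101D, below every array of the other lines. AT3G20460, for a sugar transporter of the ERD6-like family, had 183, 237 and 142 in col. It had 460, 406 and 493 in chl1-5 and 281, 332 and 273 in T101D, where its share was 0.557.

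AT3G45710 belongs to the NPF family of nitrate and peptide transporters, which also holds NRT1.1. It had 1738, 1950 and 1651 in col, and 2897, 2369 and 2334 in chl1-5. It had 3243, 2893 and 3072 in chl1-9, 2941, 2561 and 2408 in chl1-12, 3395, 2639 and 2837 in T101A, and 2342, 2172 and 2169 in T101D. T101D sat between col and the other lines, overlapping only with chl1-5. AT3G45710 lies in a row of related genes, and its bright neighbours AT3G45680 and AT3G45700 had differences between -0.30 and 0.16. The 1 probe set of the 156 that is listed for several genes belongs to the same row, and its genes are not named here because it reads more than 1. It had 550, 406 and 321 in col and 791, 582 and 664 in T101D, with differences of 0.73, 0.83, 0.68 and 0.89 in the other lines and 0.68 in T101D. All its line arrays lay above col, but probe sets of related neighbours may share signal, and this was not tested.

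Of the 10 genes for regulators, AT5G07580 differed most. It encodes an ERF factor, of a family of plant transcription factors known from ethylene and stress responses. It had 249, 215 and 217 in col, and 449, 492 and 550 in chl1-5. It had 598, 483 and 572 in chl1-9, 602, 461 and 407 in chl1-12, 523, 541 and 571 in T101A, and 361, 304 and 447 in T101D. There was no overlap with col, and T101D overlapped with chl1-12 alone.

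AT3G13840, for a GRAS transcription factor, had 118, 52.3 and 36.1 in col, and 158, 64.9 and 112 in T101D. Replicate 1 was its highest array in all 6 genotypes, and col replicate 1 overlapped with chl1-5, chl1-12 and T101D. AT3G07070, for a protein kinase, had the highest share among named genes, at 1.32. It had 197, 268 and 140 in col, 219, 374 and 302 in chl1-9, and 388, 366 and 444 in T101D. Its T101D arrays lay above all col arrays, whereas 1 chl1-9 array lay within the col range.

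The other regulators were 3 protein kinase genes, the MADS-box gene AT1G72350, the RING-finger gene AT1G35330, the F-box gene AT1G19160 and ARL, an ARGOS-like gene known to raise organ size. AT1G72350 and AT1G19160 were near background in col, at means of 8.94 and 4.09. AT1G35330 had 250, 297 and 251 in col and 589, 353 and 401 in T101D, with a share of 1.09. ARL had 232, 261 and 192 in col and 344, 324 and 434 in T101D, with a share of 0.955. In 4 of the 10 regulator genes no line array overlapped with col, the lowest proportion of the role groups with more than 4 genes.

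The 4 redox and stress genes had mean differences between 0.58 and 0.80. AT4G25090, a respiratory burst oxidase gene, had 502, 548 and 503 in col, and 724, 689 and 603 in T101D. AILP1, for an aluminium-induced protein, had 836, 907 and 912 in col, 1664, 1619 and 1743 in chl1-5, and 1293, 1200 and 1273 in T101D. Both genes had no overlap with col and lay lowest in T101D among the lines. AT3G56350, for a manganese superoxide dismutase, was near background in col, at 3.63, 13.6 and 14.8. The small heat shock protein gene AT5G51440 had 783, 671 and 344 in col and 919, 779 and 917 in T101D. For that gene, col overlapped with chl1-5, T101A and T101D and not with chl1-9 or chl1-12.

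Several of the larger or brighter differences belonged to genes outside these groups. AT5G04120, for a protein of the phosphoglycerate mutase family, had 832, 579 and 359 in col, 2774, 1522 and 1720 in T101A, and 1127, 1022 and 778 in T101D. Its T101D replicate 3 lay below col replicate 1, and its share was 0.524. AT1G14960, for a major-latex-like protein, had 1927, 2535 and 1804 in col, 5960, 4475 and 5102 in T101A, and 2831, 3689 and 3471 in T101D, with no overlap.

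AT3G02910, for an AIG2-like protein, had 4119, 3022 and 2631 in col, 8014, 6403 and 6174 in chl1-9, and 5384, 4469 and 5161 in T101D. It was above col on all line arrays. AT3G13760, for a protein with C1 domains, had 443, 186 and 193 in col and 624, 324 and 376 in T101D, and its col replicate 1 overlapped with every line except T101A. AT5G07570, for a glycine- and proline-rich protein, lies 4 loci from AT5G07580 and had differences between 0.68 and 0.97 with no overlap.

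For genes with no role given here, AT1G19960 had 696, 842 and 681 in col, 1538, 1856 and 2616 in chl1-5, and 1021, 1164 and 1454 in T101D. AT5G36270 had differences of 0.93 to 1.03 in the other lines and 0.86 in T101D. AT1G27030 had 2853, 2507 and 2378 in col and 4060, 2826 and 3479 in T101D, with 1 T101D array inside the col range. AT4G30670 had 2081, 2308 and 2294 in col and 3640, 3360 and 3443 in T101D, with no overlap and a share of 0.807. AT1G52660, AT3G10120 and AT3G01730 had shares of 1.12, 0.994 and 0.984, and only AT1G52660 of these 3 had no overlap with col.

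The 76 named genes were spread over all chromosomes, with 23, 8, 14, 13 and 18 genes on chromosomes 1 to 5. These are 0.667%, 0.364%, 0.510%, 0.663% and 0.598% of the named genes measured on each. Within 5 loci of another gene of the set lay 4 stretches: the DAO pair, the AT5G07570 and AT5G07580 pair, the acyltransferase pair, and AT5G37980, AT5G37990 and AT5G38020. The order of genes came from a table of the TAIR10.1 assembly.

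Differences among chl1-5, chl1-9, chl1-12 and T101A were not used by the rule, beyond its floor of 0.5 in each line, and were tested. In limma's moderated F test over these 4 lines, 0 of the 156 probe sets passed an adjusted p of 0.05, beside 0.286% of all probe sets, and 13 of the 156 had an unadjusted p under 0.05. Without T101A replicate 2 the F test gave 1 call. Those 13 are 8.33% of the set against 11.4% of all probe sets. A floor in every line leaves out genes that move in some lines only, so a low share is partly built into the choice. A call that was missed does not show that the lines act alike.

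By limma, each pair of these lines was also tested. T101A minus chl1-9 gave 1 call in the set, beside 0.611% of all probe sets. The other 5 pairs gave 0 calls by limma. The percentages of all probe sets called were 0.237 for chl1-9 minus chl1-5, 0.0396 for chl1-12 minus chl1-5, 0.0044 for T101A minus chl1-5, 0.176 for chl1-12 minus chl1-9 and 0.044 for T101A minus chl1-12. At an unadjusted p under 0.05 the set had 16, 5, 4, 11 and 3 probe sets in these 5 pairs, and 23 in T101A minus chl1-9. These are 10.3%, 3.21%, 2.56%, 7.05%, 1.92% and 14.7% of the set, against 11.6%, 4.12%, 8.41%, 10.9%, 5.13% and 14.3% of all probe sets.

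The call was for a probe set with no listed gene, here named unnamed 266743_at. It had 122, 159 and 153 in col, and 513, 403 and 500 in chl1-5. It had 246, 182 and 219 in chl1-9, 560, 362 and 384 in chl1-12, 552, 336 and 590 in T101A, and 243, 275 and 338 in T101D. T101A exceeded chl1-9 by 1.11 ± 0.21 (log2 ± SE; limma adjusted p = 0.0337), and chl1-9 did not overlap with any of the other 3 tested lines. This call was lost in 9 of 25 alternative settings, among them each fit without T101A replicate 1, T101A replicate 3, chl1-9 replicate 2 or chl1-9 replicate 3.

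AT1G14130 and BAT1 came next among named genes. AT1G14130 was 0.42 ± 0.10 higher in T101A than in chl1-9 (limma adjusted p = 0.0683) and 0.45 ± 0.10 higher in chl1-12 than in chl1-9 (limma adjusted p = 0.0960). BAT1 was 0.45 ± 0.09 higher in chl1-9 than in chl1-5 (limma adjusted p = 0.0612). AT4G33730 was 0.60 ± 0.16 higher in T101A than in chl1-9 (limma adjusted p = 0.106). Arrays of the compared lines did not overlap in any of these 4 comparisons, but none of them passed in the reported fit. T101A was the highest of the 4 lines in 67 of the 156 probe sets, chl1-9 in 43, chl1-5 in 32 and chl1-12 in 14. The median of T101A minus chl1-12 over the set was 0.09, with 108 of 156 higher in T101A, and over all probe sets 51.6% were higher.

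The rule was also applied to 2 replicate numbers and the third was left aside. With replicate 1 left out, 216 probe sets were chosen, and in 147 of them (68.1%) the 5 left-out line arrays all lay above the left-out col array, against 17.6% of all probe sets. With replicate 2 left out, these were 149 of 219 (68.0%) against 16.5%. With replicate 3 left out, they were 97 of 131 (74.0%) against 17.3%. These counts use the sign alone. All 5 left-out differences reached 0.5 in fewer, 36 of 216, 43 of 219 and 53 of 131, and this was not counted over all probe sets. The 5 differences of a left-out set share 1 col array, so they can all be high together when that array is low. Only part of each choice was also in the set described above, 121 of the 216, 132 of the 219 and 84 of the 131 probe sets. The percentages here and the medians below therefore belong to each choice as a whole, and no rate is given for the shared probe sets alone.

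In the left-out arrays the medians were smaller than in the arrays used for choosing where replicates 1 or 2 were left out. For replicate 1 the left-out medians were 0.57, 0.48, 0.53, 0.56 and 0.35, in the order chl1-5, chl1-9, chl1-12, T101A and T101D. The arrays used for choosing gave 0.81, 0.89, 0.78, 0.90 and 0.67. For replicate 3, where the col array was the lowest, the left-out medians were 0.79, 0.76, 0.69, 0.89 and 0.58, and T101D was again the lowest line. Of the 156 probe sets, 49 were chosen again whichever single array was left out, and 21 of these were named. Without col replicate 1 the rule chose 261 probe sets, 133 of them among the 156, and without col replicate 3 it chose 152, 102 of them among the 156. AT5G47000, AT5G47980, AT1G51340, AT1G14130, AT1G66180 and AILP1 were among the 21.

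Near the limits of the rule, genes inside and outside lay close together. The smallest of the 4 differences was 0.5019 for AT3G45710, 0.5037 for AOP1 and 0.5052 for AT2G18360, which are inside. It was 0.4997 for AT2G16980, 0.4994 for AT3G01930 and 0.4986 for AT1G27200, which are outside. For the share of T101D, AT3G45710, AT5G37990 and AT1G24735 were inside at 0.504, 0.505 and 0.520, and STR18, AT1G44050 and AT3G46270 were outside at 0.495, 0.487 and 0.479. A further 90 probe sets were at least 0.5 above col in the 4 lines with a T101D share under 0.5, and their median T101D difference was 0.27.

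Of the lists of nitrogen genes and cell type markers, few genes had a named probe set. The nitrate and ammonium list had AT3G25790, a GARP-type repressor of nitrogen responses, as its 1 measured gene. AT3G25790 fell in chl1-5 by 0.76 (limma adjusted p = 0.0133), in chl1-9 by 0.57 (limma adjusted p = 0.0492) and in chl1-12 by 0.77 (limma adjusted p = 0.0150), where 0.822%, 1.64% and 0.558% of all probe sets were called lower. Its differences of -0.33 in T101A and 0.21 in T101D did not pass.

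The root hair marker EXPA7 had 746 ± 113 in col and 967 ± 89 in T101D (SD, n = 3), with differences between -0.07 and 0.37, and it did not pass in any line. The cortex marker AT1G62500 had differences between -0.04 and 0.39 and did not pass either. RCA, a marker of green tissue, had 1660 ± 329 in col and 764 ± 168 in T101D, a difference of -1.11 (limma adjusted p = 0.0744). Its differences in the other lines were -0.10, -0.34, -0.34 and -0.56. The other root cell type lists had 0 measured genes under a name. These markers compare root samples with each other, so they cannot check the labelled tissue. A pair of GAPDH control probe sets at the 5' and 3' ends of the transcript gives a ratio that measures RNA quality. It was 0.740 to 0.797 in col and 0.729 to 0.828 in chl1-9. In the other 4 lines together it was 0.788 to 0.981. The part of these markers and of RNA quality in the result was not tested.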

How the data were processed

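Root total RNA of 6 genotypes was measured on 18 Affymetrix arrays, 3 per genotype, and groups and replicate numbers were taken from the sample titles. The authors deposited 1 table of linear intensity values, which were biotin-labelled with a 3' IVT Express kit per the labels' protocols. The sources used here name neither the software that summarised the probes nor the background correction. With 2% of probe sets trimmed at each end, the mean of every array is 500, so any change in total messenger RNA is hidden. The number of arrays limits the precision.

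The 64 control probe sets were left out. Values were taken as log2(value + 16), so changes of dim probe sets are understated. For all probe sets, limma 3.58.1 in R 4.3.3 fitted 1 mean per genotype to the 18 arrays together. The moderated F test over 4 lines and their 6 pairs were each adjusted by the Benjamini-Hochberg method and called under 0.05, and the fit was checked on simulated data. Python 3.11.15, numpy 2.4.6, pandas 2.3.3 and matplotlib 3.10.9 handled tables and figures. Whether arrays of a genotype came from separate cultures is not labelled, and the p-values then reflect only how far these samples spread, perhaps for technical reasons.

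Names came from the platform annotation, which lists 1 gene for 13513 tested probe sets, several for 503 and none for 8730. All 76 named genes of the set matched a RefSeq table of assembly TAIR10.1. The members and lists were chosen with earlier results of these data known. Named are the 14 genes with the largest mean difference, the next 6 by T101D share, the next 5 brightest in col, those called among the 4 lines, those within 5 loci of another, and those on a list, 31 genes in all. Other genes were named after their values were seen. The family lists, matched by locus, symbol or synonym, held 1 gene of the set, BAT1. They missed genes known here by locus alone, such as the peroxidase and CAP genes described above. Alternatives were filters, pseudocounts, scalings, left-out arrays, the replicate number as a block, array weights, a trend and a smaller fit. A planned search of promoters for motifs was not run, because no promoter sequence was used here.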

Additional observations from a re-analysis of the deposited data

Results flagged for a closer look

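The unnamed probe set 266743_at differed between T101A and chl1-9 by 1.11 on the log2 scale, with an SE of 0.21 and a limma adjusted p of 0.0337. It was the 1 probe set of the 156 whose effect differed between a pair of the tested lines. Its chl1-9 arrays, at 246, 182 and 219, lay below all arrays of chl1-5, chl1-12 and T101A and within reach of the T101D arrays, at 243, 275 and 338. Over 25 alternative settings the difference stayed between 0.96 and 1.35, and the limma adjusted p ran from 0.00711 to 0.386. Groups of 3 arrays are too small for a search for single outlying arrays, and none was made.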

How the results depend on the processing

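The size of the set depended on how dim values were treated and on single col arrays. A pseudocount of 1 gave 353 probe sets in place of 156, and a pseudocount of 64 gave 94. Leaving out col replicate 1 gave 261, of which 133 were among the 156, and leaving out col replicate 3 gave 152, of which 102 were. Over all 18 single left-out arrays the count ran from 135 to 261, and with a replicate number left out from 131 to 219. Other filters and scalings kept it within 1.5 times.

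By limma, the F test over the 4 lines called 0 of the 156, with 13 at an unadjusted p under 0.05. It called 1 above the lowest quartile of intensity, 2 above the median, 1 with an intensity trend and 0 to 1 with an array left out (1 without T101A replicate 2). Calls in pairs of lines were 1 in the reported fit. They were 3 above the lowest quartile, 4 above the median, 3 with an intensity trend, 3 with a pseudocount of 64, 0 with array weights and 0 in a fit of the 12 arrays of the 4 lines. With an array left out they were 0 to 1, and 0 without T101A replicate 1, T101A replicate 3, chl1-9 replicate 2 or chl1-9 replicate 3. With a replicate number left out they were 0. AT1G14130 passed for T101A against chl1-9 in 5 of these settings (lowest limma adjusted p 0.0217, against 0.0683 as reported), and BAT1 passed for chl1-9 against chl1-5 in 4 (lowest 0.0138, against 0.0612). AT4G33730 passed in 1. The cause of these changes was not tested.

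With the replicate number as a block, the F test called 0 and the pairs 2, the unnamed probe set 266743_at and AT1G14130. AT1G14130 gained its call there for T101A against chl1-9 (limma adjusted p 0.0446, with 0.0217 to 0.0456 over the 5 settings in which it passed). Same-numbered arrays correlated weakly in their deviations from genotype means, at 0.01 to 0.142 and over 0.1 in 7 of 45 pairs. The median was 0.063, against -0.035 for arrays with other numbers, and 18 of 18 arrays correlated best with their own number. Arrays of 1 number thus shared some deviation, which the reported fit leaves in its spread. Over all probe sets, 305 were called by limma in a pair of lines with the block, against 162 in the reported fit. Among the genes given a role, intensities near background, with col means under 16, limit AT3G55700, AT5G38100, AT3G56350, AT1G72350 and AT1G19160.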
